A study of Mus musculus with 3 samples.

Results

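Germ cell identity genes were examined for binding of NR2F2 in the fetal mouse testis, using the 10 genes Ddx4, Dazl, Pou5f1, Nanos2, Nanos3, Dnd1, Kit, Stra8, Tfap2c and Prdm1. A peak was assigned to these genes when the nearest transcription start site (TSS) among curated RefSeq transcripts was that of a member gene, or when the peak lay within 50 kb of a member TSS. Of 10069 peaks, 16 met this rule, 6 of them through the nearest TSS and 10 only through the window. Chromatin came from whole testes of CD-1 embryos at E14.5, freed of the mesonephros. The testes were pooled (30), and sheared chromatin (18 μg) was incubated with 5 μl of antibody. The study describes the experiments as biological replicates but not whether each had its own pool. The p-values of count fits against input measure the spread between these samples, which includes any depth difference where libraries were taken as equally deep. Those of the test between replicates cover counting error only. NR2F2 (COUP-TFII) was immunoprecipitated in 2 independent experiments, referred to as ChIP replicates 1 and 2, and compared with 1 input library of chromatin that was not immunoprecipitated. All embryos were of one strain and stage, with no mutant or treated group, and the chromatin of germ, interstitial, Sertoli and other cells was mixed, so that the counts do not tell in which cells a site was bound.

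NR2F2 is an orphan nuclear receptor of the COUP-TF family that binds DNA at half-sites of the nuclear receptor motif, alone or as direct repeats. In the fetal testis it is known as a protein of non-steroidogenic interstitial cells. Germ cells reach the gonad as primordial germ cells, whose fate is set by transcription factors such as PRDM1 and TFAP2C, and in the fetal testis they are held from meiosis and enter the male pathway. RNA-binding proteins, among them the NANOS proteins, DND1, DAZL and DDX4, act on germ cell transcripts, KIT is the receptor for the KIT ligand made by somatic cells, and STRA8 is the retinoic acid-responsive gatekeeper of meiosis.

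A peak was found within 50 kb of the TSS of 7 of the 10 genes, while Ddx4, Dazl and Nanos2 had none. Across all 26180 curated genes the share with a peak within 50 kb was 54.5%. Only Prdm1, Tfap2c and Kit were the nearest gene to any peak, with 2 peaks each, which is 3 of 10 genes beside 30.2% of all genes. With GENCODE M21 starts the distal Kit and the distal downstream Tfap2c peak were nearest to Gm43101 and Gm22773 instead and left the set, so that Kit and Tfap2c kept 1 such peak each. Both shares of the germ cell genes stood on so few genes that they are given as counts only. The strongest ChIP counts were at peaks nearest to other genes in gene-dense regions: Dnd1 had 9 and Nanos3 8 other genes with a TSS within 50 kb, whereas Prdm1, Tfap2c and Kit had 0. Among protein-coding genes the share with a peak within 50 kb was 48.9% with 0 to 2 such neighbours, 63.5% with 3 to 5 and 76.5% with 6 or more.

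**Figure D1:**
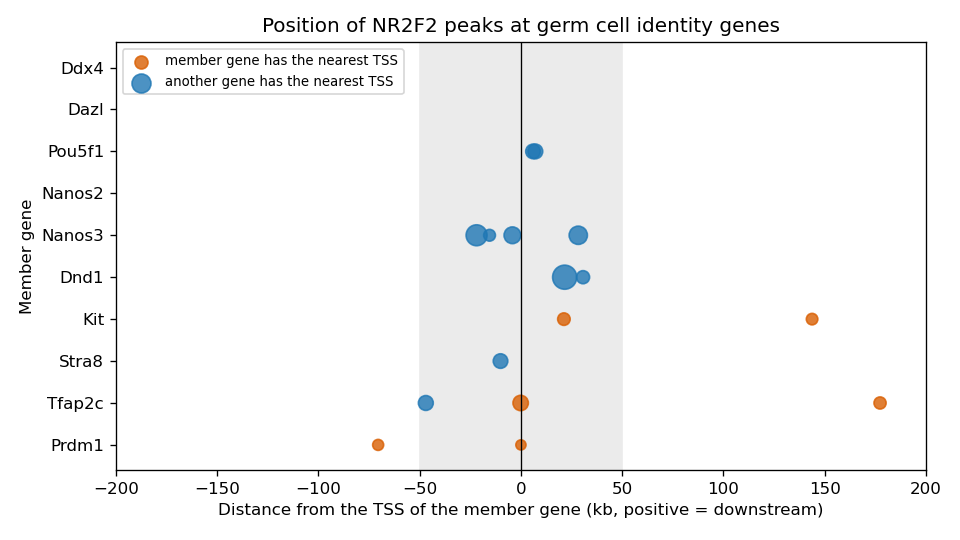
Distance of each of the 16 peaks from the TSS of its germ cell gene, in kb with positive values downstream, by gene. Circle area grows with the summed ChIP count, the grey band marks 50 kb on either side, and colour shows whether the member gene or another gene has the nearest TSS. Ddx4, Dazl and Nanos2 have no circle, and all 6 peaks nearest to a member belong to Kit, Tfap2c and Prdm1.

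The sequences of peaks in or within 1 kb of Kit, Tfap2c and Prdm1 are shown because these are the genes with a peak of their own. All are from the plus strand of GRCm38 (mm10), and capitals mark nuclear receptor half-sites, AGGTCA or GGGTCA read on either strand. For the peaks at the Tfap2c and Prdm1 TSSs only the stretch outside untranslated regions is printed, and neither stretch holds a half-site, although the Tfap2c peak has 1 outside its stretch, which is printed with the motif windows.
Kit intron 1, chr5:75596211-75596510: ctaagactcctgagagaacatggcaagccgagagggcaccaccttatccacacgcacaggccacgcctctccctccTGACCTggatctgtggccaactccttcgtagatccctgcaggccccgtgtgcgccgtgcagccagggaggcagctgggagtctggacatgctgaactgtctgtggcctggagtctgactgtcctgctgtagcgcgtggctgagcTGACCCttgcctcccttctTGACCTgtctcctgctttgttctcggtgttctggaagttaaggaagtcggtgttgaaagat
Tfap2c TSS, chr2:172550674-172550781: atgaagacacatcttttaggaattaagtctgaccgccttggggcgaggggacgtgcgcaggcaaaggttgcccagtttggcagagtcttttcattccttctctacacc
Prdm1 upstream, chr10:44529238-44529537: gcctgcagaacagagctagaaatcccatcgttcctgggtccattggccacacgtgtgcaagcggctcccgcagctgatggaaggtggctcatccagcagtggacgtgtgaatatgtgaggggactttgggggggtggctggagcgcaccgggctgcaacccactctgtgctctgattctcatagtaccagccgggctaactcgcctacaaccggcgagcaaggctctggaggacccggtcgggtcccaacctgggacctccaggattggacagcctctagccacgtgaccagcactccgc
Prdm1 TSS, chr10:44458749-44458796: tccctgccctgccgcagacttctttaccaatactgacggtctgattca

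Reads over the 300 bp of each peak are given as raw counts. Summed over all peaks the input held 73251 reads, ChIP replicate 1 426784 and ChIP replicate 2 364261. Only reads at peaks enter these sums, so the depth of each library is unknown. The 16 peaks had median counts of 7 in the input, 41 in replicate 1 and 38 in replicate 2, against 7, 37 and 31 over all peaks. The median ChIP to input ratio, with 0.5 added to each count, was 4.61 ± 0.17 (SD, n = 2 ChIP replicates), beside 4.75 ± 0.50 over all peaks. The 6 peaks nearest to a member had a median ratio of 4.10 ± 0.13 and the 10 nearest to another gene 5.07 ± 0.71 (SD, n = 2). Both replicates were divided by the same input without scaling for depth, so these SDs include any depth difference between replicates.

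**Figure D2:**
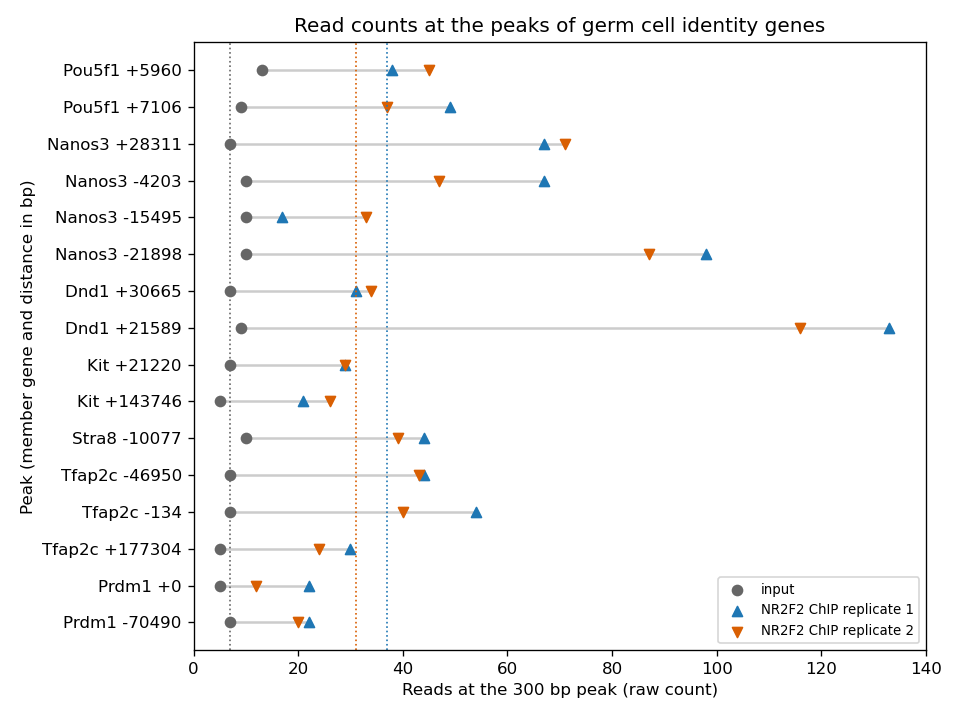
Raw read counts of the input and both ChIP replicates at each of the 16 peaks, named by gene and signed distance from its TSS in bp. Dotted lines are the medians over all 10069 peaks, at 7, 37 and 31 reads, and every ChIP count lies above the input count of its own peak. The Dnd1 peak with 133 and 116 reads stands farthest to the right.

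Among the transcription factors of germ cell specification, Prdm1 encodes BLIMP1, a repressor required for primordial germ cells. The peak at its TSS, chr10:44458497-44458796, covered the first of 7 exons and had 5 input, 22 and 12 ChIP reads. It ranked low among all peaks, at percentile 5.90 of the summed ChIP count, with tied peaks given their mean rank. Its log2 ratio over input, in a fit that took the 3 libraries as equally deep, came to 1.74 ± 0.68 (SE), short of the threshold (edgeR quasi-likelihood, adjusted p = 0.103). It passed with robust fitting (adjusted p = 0.0103), with replicates scaled to each other (0.0111) and with ChIP depth set 2 times lower (0.0354). Those settings called 97.5%, 97.8% and 97.9% of all peaks. The peak did not pass in DESeq2 (adjusted p = 0.162) or with ChIP depth set 2 times higher (0.425). The second Prdm1 peak, chr10:44529238-44529537, lay 70490 bp upstream with 7 input, 22 and 20 ChIP reads. It was above input by 1.57 ± 0.29 on the log2 scale (adjusted p = 0.0337), a call that DESeq2 did not make (adjusted p = 0.156). A Prdm1 transcript of the GENCODE M21 annotation starts 737 bp from this peak, so its distance depends on the annotation.

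Tfap2c encodes AP-2γ, which acts with PRDM1 in germ cell specification. The peak 134 bp upstream of its nearer TSS, chr2:172550558-172550857, had its midpoint in intron 1 of the longer transcript. It had 7 input, 54 and 40 ChIP reads, the highest ChIP counts of the 6 peaks nearest to a member. Its log2 ratio over input was 2.73 ± 0.45 (SE, adjusted p = 0.0316). A peak 177304 bp downstream had 5 input, 30 and 24 ChIP reads and lay outside any gene. Another peak lay 46950 bp upstream, nearest to Fam209, at chr2:172502344-172502643, with 7 input, 44 and 43 ChIP reads. All of the Tfap2c peaks passed the test against input, beside 80.7% of all peaks. Their log2 ratios were 2.73, 2.40 and 2.61 in the order given.

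Pou5f1 encodes OCT4, the pluripotency factor that germ cells keep expressing. Its 2 peaks lay 5960 and 7106 bp downstream of its nearer TSS, in coding exons of the neighbouring gene Tcf19. The first, chr17:35514767-35515066 in exon 3 of 4, had 13 input, 38 and 45 ChIP reads. The second, chr17:35515913-35516212 in exon 2 of 4, had 9 input, 49 and 37 ChIP reads. Their log2 ratios were 1.67 ± 0.31 (adjusted p = 0.0340) and 2.24 ± 0.41 (adjusted p = 0.0333, SE in both), and DESeq2 did not call the first (adjusted p = 0.0677). The first had the highest input count of the 16 peaks.

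Among the RNA-binding proteins, Nanos3 is needed for survival of primordial germ cells and had the most peaks, all of them nearest to another gene. The peak 28311 bp downstream, chr8:84147942-84148241, lay at the TSS of 4930432K21Rik with 7 input, 67 and 71 ChIP reads. The peak 4203 bp upstream, chr8:84180755-84181054, was nearest to Mir181c and had 10 input, 67 and 47 ChIP reads. The peak 21898 bp upstream, chr8:84198450-84198749, nearest to Mir23a, had 10 input, 98 and 87 ChIP reads. Its summed ChIP count was at percentile 97.3 of all peaks, with tied peaks given their mean rank. These 3 peaks were above input by 3.28 ± 0.30, 2.50 ± 0.47 and 3.19 ± 0.30 on the log2 scale (SE, adjusted p = 0.0311, 0.0342 and 0.0311). The peak 15495 bp upstream, chr8:84192047-84192346, had 10 input, 17 and 33 ChIP reads, and the fit gave 1.31 ± 0.67 on the log2 scale over input, short of the threshold (adjusted p = 0.163). It passed with robust fitting (adjusted p = 0.0209) and with replicates scaled to each other (0.00924), settings that called 97.5% and 97.8% of all peaks. It did not pass in DESeq2 (adjusted p = 0.201) or with at least 10 input counts (0.108). Nor did it pass with ChIP depth set 2 times lower (0.0506) or higher (0.702). Its log2 ratio was 0.74 in replicate 1 alone and 1.67 in replicate 2 alone. From GENCODE M21 starts the Nanos3 peaks 15495 and 21898 bp upstream lay 6830 and 13233 bp from the gene.

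Dnd1 encodes an RNA-binding partner of the NANOS proteins. Its 2 peaks lay downstream within neighbouring genes. The one 21589 bp away, chr18:36744326-36744625, lay at the TSS and first exon of Ndufa2, a subunit gene of mitochondrial complex I, and had 9 input, 133 and 116 ChIP reads, the highest ChIP counts of the 16. Its log2 ratio over input was 3.77 ± 0.30 (SE, adjusted p = 0.0311). The one 30665 bp away, chr18:36735250-36735549, in exon 2 of 12 of Tmco6, had 7 input, 31 and 34 ChIP reads. No peak lay within 50 kb of Nanos2, which promotes the male germ cell fate, or of the translation regulator Dazl or the RNA helicase Ddx4. The closest peak was 94841 bp from Nanos2 with 11 input, 32 and 39 ChIP reads, 148455 bp from Ddx4 at the Plpp1 TSS with 9, 29 and 26 reads, and 216194 bp from Dazl near Plcl2 with 4, 23 and 28 reads. Of all curated genes, 67.5%, 75.9% and 81.8% had a closer peak than these 3.

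Kit had a peak in intron 1, 21220 bp downstream of its TSS, at chr5:75596211-75596510, with 7 input reads and 29 in each ChIP replicate. Its log2 ratio over input was 2.03 ± 0.28 (SE, adjusted p = 0.0311), and it holds 3 half-sites. A second peak, chr5:75718737-75719036, lay 143746 bp downstream, outside any gene, with 5 input, 21 and 26 ChIP reads. DESeq2 called neither Kit peak above input (adjusted p = 0.0608 and 0.0653). From GENCODE M21 starts these peaks lay 14064 and 69544 bp from Kit. Stra8 had 1 peak, 10077 bp upstream at the TSS of Wdr91, chr6:34910572-34910871, with 10 input, 44 and 39 ChIP reads.

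At equal depth, 14 of the 16 peaks were above input, beside 80.7% of all peaks. The authors called the peaks on the merged ChIP replicates, so a high ChIP count is in part how these regions were chosen, and nothing is read from the excess over input. Relative to the typical ChIP to input ratio over all peaks, 1 of the 16 was higher, beside 1.53% of all peaks, and 0 were lower, beside 0.0497%. The 1 was the Dnd1 peak at Ndufa2, with a log2 difference of 1.47 ± 0.42 (SE, adjusted p = 0.0360), and at an unadjusted p under 0.05 there were 2 above, beside 7.89% of all peaks, and 0 below, beside 2.55%. Its call was lost without TMM scaling, with DESeq2 size factors and in DESeq2 itself, over which its adjusted p reached 0.261. The test between the ChIP replicates, an exact binomial test against the share expected from the totals, called 0 of the 16, beside 0.0993% of all peaks, and 1 of the 16 at an unadjusted p under 0.05, beside 8.83% of all peaks. That was the Nanos3 peak 15495 bp upstream, where replicate 1 held 34.0% of the ChIP reads (95% exact interval 21.2 to 48.8%) against an expected 54.0%.

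**Figure D3:**
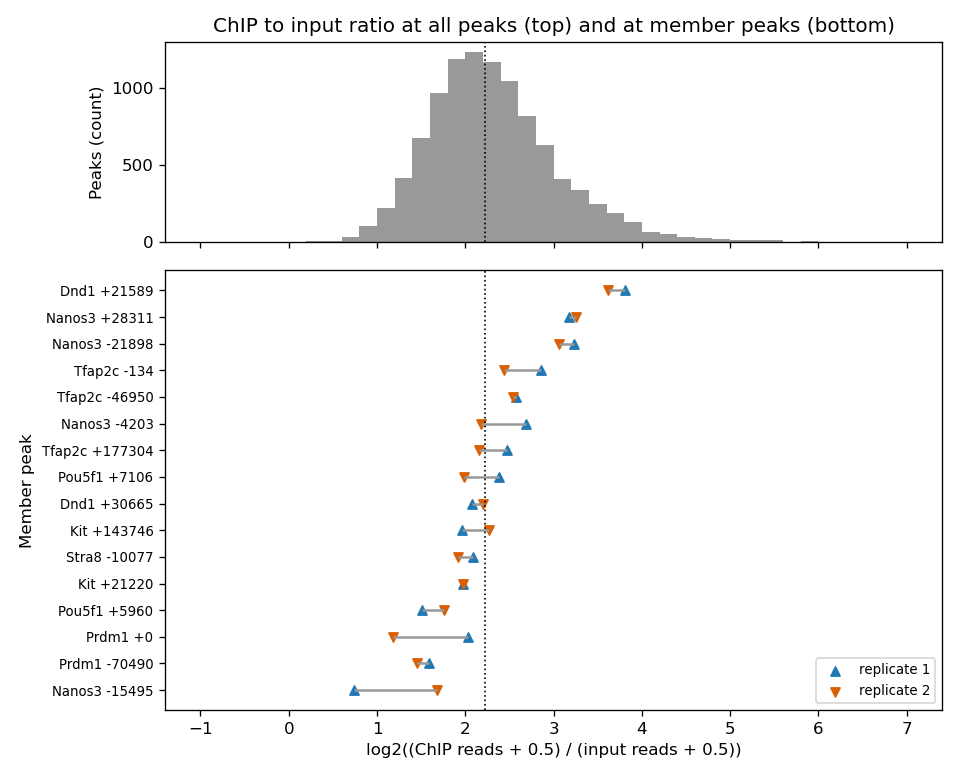
Top, number of all peaks by log2 ChIP to input ratio, averaged over replicates, with 0.5 added to each count. Bottom, the ratio in each replicate at the 16 peaks, in order of their mean, with the dotted line at the median of all peaks, 2.23. Of the 16 peaks, 7 had a mean above that line and the lowest was the Nanos3 peak 15495 bp upstream, at 1.21.

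Half-sites were present in 10 of the 16 peaks (62.5%), beside 58.9% of all peaks and 27.5% of 300-base promoters. Extended sites, either half-site preceded directly by AG, were in 2 (12.5%), beside 10.5% of all peaks. Direct repeats, 2 half-sites on one strand with 0 to 8 bases between, were in 2 (12.5%), beside 5.13%. GC boxes, GGGCGG, were in 10 (62.5%), beside 39.5%. The E-box CACGTG was in 1 peak, beside 9.38%, and the ETS site CCGGAAG in 1, beside 10.6%. Windows of 30 bases around the repeat and the extended sites are given, since both Pou5f1 peaks and the Tfap2c TSS peak hold one; capitals mark the sites.
Pou5f1 5960 bp downstream, direct repeat, chr17:35514941-35514970: ggggccaaAGGTCAgaAGGTCAccatcact
Pou5f1 7106 bp downstream, extended site, chr17:35516050-35516079: gtggaaggtgtAGAGGTCAccgcccctgcc
Tfap2c TSS, extended site, chr2:172550648-172550677: tgctacccttcTGACCCCTgggactgatga

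A match of letters is a description of these windows and not a measured binding site. The half-sites of the direct repeat in the first Pou5f1 peak were 2 bases apart. The second repeat was in the Dnd1 peak at Ndufa2.

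A wider list of 38 genes of germ cells and of signals that act on them was read in the same way. It holds Kitl, which somatic cells make, and Dmrt1, which is also in the Sertoli list, so the Dmrt1 peak counts in both. Of these, 21 (55.3%) had a peak within 50 kb, beside 54.5% of all genes, and 14 (36.8%) were the nearest gene to a peak, beside 30.2%, with 16 peaks in all. By summed ChIP count the first were Tial1, with 9 input, 55 and 51 ChIP reads at its TSS, and Bhmg1, with 8, 65 and 36 at its TSS. Cyp26b1, whose product degrades retinoic acid in the fetal testis, had 3 peaks, the highest 30505 bp downstream with 13 input, 52 and 34 ChIP reads. Sall4 and Utf1, both pluripotency-associated, had 27 and 36 ChIP reads each, with 10 and 6 input reads. Cpeb1, Dmrt1, Elavl2, Tex14 and Sox2 followed with summed ChIP counts from 42 to 53. Among 10 interstitial genes, 5 had a peak within 50 kb and 5 were the nearest gene to a peak, with 19 peaks in all at up to 657009 bp from the TSS, and the 2 lists were not compared by a test. Of 5 Sertoli genes 3, of 6 fetal Leydig genes 4, of 3 endothelial genes 3 and of 2 immune genes 0 had a peak within 50 kb. Beside 54.5% of all genes, lists this short are given as counts, and no difference between cell types is read from them.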

How the data were processed

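NR2F2 ChIP-seq counts came from 1 input and 2 ChIP libraries. Per the labels and methods, the authors trimmed single-end 75-nt reads (Trim Galore 0.6.7), mapped them to mm10 (Bowtie2), removed duplicates (Picard 1.110), called peaks with HOMER 4.11.1 on merged ChIP replicates, resized them to 300 bp and deposited raw counts per peak. The methods do not say whether peak calling used the input.

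Distances ran from the nearer peak edge to TSSs of 45756 curated RefSeq transcripts (GRCm38.p6). Counts were fitted over all 10069 peaks with edgeR 4.0.16 (R 4.3.3; glmQLFit, glmQLFTest, Benjamini-Hochberg, threshold 0.05), at equal library sizes or with TMM. The single input was assumed to vary like the ChIP libraries, so p-values rest on the spread of 2 libraries. Replicates were compared by a two-sided exact binomial test (scipy 1.17.1), which covers counting error only. The scripts were tested on simulated data; where replicates were simulated with spread beyond counting error, the binomial test also called many unchanged peaks, and it was kept with that limit. Intervals cover counting error only. Members, gene lists and tests were chosen with earlier results of these data known. Every member gene and every peak of the rule was named, and of the wider list up to 10 genes by summed ChIP count. Alternatives included DESeq2 1.42.0. Peak sequences, apart from the motif windows, were chosen from the 3 peaks nearest to a member with the highest summed ChIP count and from other peaks in or within 1 kb of a member gene. Of those chosen, 1 from Tfap2c is not reported here, and the remaining peaks were not chosen.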

Additional observations from a re-analysis of the deposited data

How the results depend on the processing

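No paired analysis was possible because the single input carries no replicate number. The count of 14 peaks above input rests on the assumed depth: it was 0 if ChIP depth was set 2 times higher (0 of all peaks). With at least 10 input counts it was 4 of 5 peaks tested, beside 88.5% of all peaks so tested. In DESeq2 it was 10, beside 59.6% of all peaks, and the first Pou5f1 peak, both Kit peaks and the upstream Prdm1 peak were lost. With ChIP depth set 2 times lower it was 15, beside 97.9% of all peaks. Robust fitting and replicates scaled to each other both gave 16, beside 97.5% and 97.8% of all peaks. The single peak above the typical ratio became 0 without TMM, with DESeq2 size factors and in DESeq2 (where 14 of 16 had no adjusted p). The share of all peaks called in these settings was 1.01%, 0.387% and 0.218%. It also became 0 with at least 10 input counts, beside 2.39% of all peaks so tested, where that peak, with 9, was not tested. The counts below the typical ratio and between replicates were 0 throughout. The 16 peaks became 9 with a 10 kb window, 6 by nearest TSS only, 21 with a 100 kb window and 14 with GENCODE M21 starts, an alternative chosen after seeing the data. The 7 genes became 4 at 10 kb, beside 31.8% of all curated genes, and 8 at 100 kb, beside 68.6%. The median ratio of 4.61 was 3.22 with 5 added to each count, 4.0 with at least 10 input counts and 4.10 at peaks nearest to a member, and ranged from 4.49 to 4.72 leaving out one replicate. The causes were not tested. No log2 ratio of a single peak reversed under the alternatives run. Input counts of 5 to 13 per peak limit each ratio.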
